A study of Mus musculus with 9 samples.

Results

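The genes described here are 38 interferon response genes and interferon regulators, chosen by their gene symbols from a list of receptors, transcription factors, RNA sensors and interferon-induced genes, among 23361 genes in a table of RNA levels from sorted mouse skin cells. All 38 symbols were found, and all 38 passed the filter on low counts that left 15078 genes. The series compared 3 groups of 3 libraries each, named Quiescent, Active and UVB, that is 9 libraries. Every library carries the labels melanocyte stem cells, skin, genotype TBPT and an age of 10 postnatal weeks. Cells were sorted by flow cytometry, and the treatments named for all libraries alike are chemical depilation and UVB irradiation, without a statement of which group was depilated. The alleles behind the name TBPT, the markers used in the sort and the number of animals behind a library are not spelled out in the labels, so p-values measure the spread between these libraries, which may be technical. No untreated wild-type group is among the libraries used here, and the genotype is shared by all 3 groups.

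Interferons are secreted proteins that alert cells to viruses, damaged nucleic acids and inflammation. Type I interferons bind IFNAR1 and IFNAR2 and, through the kinases TYK2 and JAK1, activate a complex with STAT2 and IRF9 that binds the interferon-stimulated response element (ISRE) in front of its target genes. Interferon gamma binds IFNGR1 and IFNGR2 and acts mainly at a different element, the gamma-activated site (GAS). The induced genes include sensors of viral RNA, enzymes that block viral replication and brakes on the pathway itself. In skin, keratinocytes, fibroblasts, resident immune cells and melanocytes all carry interferon receptors.

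The libraries held 21045070 to 35131778 fragments. Markers of the labelled cell type set the groups apart before any interferon gene was considered. Sox10, a transcription factor of the melanocyte and Schwann lineages, stood at 0.295 to 3.99 counts per 1e+06 fragments (CPM) in the Quiescent libraries and at 312 to 661 CPM in the Active and UVB libraries. The summed level of 10 pigment lineage markers was 74.4 to 122.1 CPM in Quiescent, 7844 to 12750 CPM in Active and 887.7 to 1071 CPM in UVB. Sox10, with a mean of 474 CPM, made up a large part of the UVB sum. By edgeR tests, 8 of the 10 were higher and 0 lower in UVB than in Quiescent, against 25.8% and 23.2% of all tested genes. Mitf went the other way, at 47.3, 53.8 and 64.0 CPM in Quiescent and 23.8, 20.0 and 38.1 CPM in UVB. Mlana averaged 6.43 CPM in Quiescent and 6.72 CPM in UVB. The 10 dermal fibroblast markers summed to 336000 to 454500 CPM in Quiescent, 4832 to 6145 CPM in Active and 22040 to 34510 CPM in UVB, and Col1a1, a collagen of fibroblasts, was measured at 98403 CPM or more in each Quiescent library. The libraries labelled Quiescent thus go against their label, and every comparison with them is also a comparison between samples with different marker levels. Xist, expressed from the inactive X chromosome of females, had 23353 to 30356 fragments in the UVB libraries and 4 to 12 elsewhere, and the Y-linked genes had 0 to 2 fragments in UVB and 4106 to 5591 elsewhere, so sex and the UVB label cannot be told apart. In all these libraries, fewer cells of a type and less RNA per cell cannot be told apart either.

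Promoter sequences were searched for the letters of the elements bound in interferon signalling. RefSeq promoter windows of build GRCm38.p6, 300 bases long with 250 before and 50 after the start site, were matched for 31 of the 38 members. The ISRE was searched on both strands as GAAA, any 2 bases and GAAA, where matches may overlap one another, and 14 of the 31 members (45.2%) had at least 1 match, against 3.99% of 27025 genes with a window. The GAS, searched in the same way as TTC, any 3 bases and GAA, was matched in 10 of the 31 members (32.3%), against 9.55% of genes, and in Bst2 a GAS match overlapped an ISRE match. A match is a string of letters, not a shown binding site. Usp18, Oas2, Mx1, Mx2, Ifi27l2a, Parp14 and Rtp4 had no window.

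Isg15 and Oas1a are shown with the 250 bases before their start sites, Isg15 because it had the most ISRE matches of the members, and Oas1a because its matches lay closest before the start site. Sequences are written 5′ to 3′ on the strand of the gene, and capitals mark the ISRE matches. Isg15 lies on chromosome 4 on the minus strand, and its stretch is chr4:156200819-156201068. The Oas1a stretch is chr5:120907526-120907775, also on the minus strand.
Isg15: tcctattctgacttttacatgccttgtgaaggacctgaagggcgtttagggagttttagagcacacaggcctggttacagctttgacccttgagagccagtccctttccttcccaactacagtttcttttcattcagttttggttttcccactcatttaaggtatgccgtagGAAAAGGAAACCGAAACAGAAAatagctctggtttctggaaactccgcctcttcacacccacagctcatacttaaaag
Oas1a: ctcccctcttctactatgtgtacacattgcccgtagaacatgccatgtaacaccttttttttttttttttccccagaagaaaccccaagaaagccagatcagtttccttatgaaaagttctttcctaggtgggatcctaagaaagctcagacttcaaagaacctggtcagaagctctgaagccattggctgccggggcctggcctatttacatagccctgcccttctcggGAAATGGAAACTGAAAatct

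Isg15 had 3 overlapping matches that began 78, 72 and 66 bases before the start site, written as positions -78, -72 and -66. In Oas1a the 2 overlapping matches began at -20 and -14. Shorter stretches around the matches are shown for 6 other members, for comparing the orientation and the number of copies. Where the element lies in the orientation opposite to the gene, it appears as its reverse complement, with TTTC in place of GAAA.
Bst2, chr8:71537572-71537617, minus strand: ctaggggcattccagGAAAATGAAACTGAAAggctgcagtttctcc
Ifit1, chr19:34640770-34640828, plus strand: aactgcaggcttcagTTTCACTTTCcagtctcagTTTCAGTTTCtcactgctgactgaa
Gbp3, chr3:142559984-142560029, plus strand: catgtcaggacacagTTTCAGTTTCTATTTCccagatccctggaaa
Gbp7, chr3:142530268-142530307, plus strand: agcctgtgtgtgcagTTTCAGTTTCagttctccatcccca
Oas3, chr5:120777710-120777749, minus strand: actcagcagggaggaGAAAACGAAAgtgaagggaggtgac
Stat2, chr10:128270261-128270300, plus strand: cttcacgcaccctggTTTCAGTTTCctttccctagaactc

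Bst2, Gbp3 and Ifit1 had 2 matches each, overlapping in Bst2 and Gbp3 and separate in Ifit1, and Gbp7, Oas3 and Stat2 had 1 each. In Ifit3, Irf2, Rsad2 and Gbp2 the matches also lay before the start site, whereas in Ddx58 and Ifih1 they began 3 and 33 bases after it. The 17 members with a window and no ISRE match included Oasl2, Irf5 and Irf7.

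**Figure D1:**
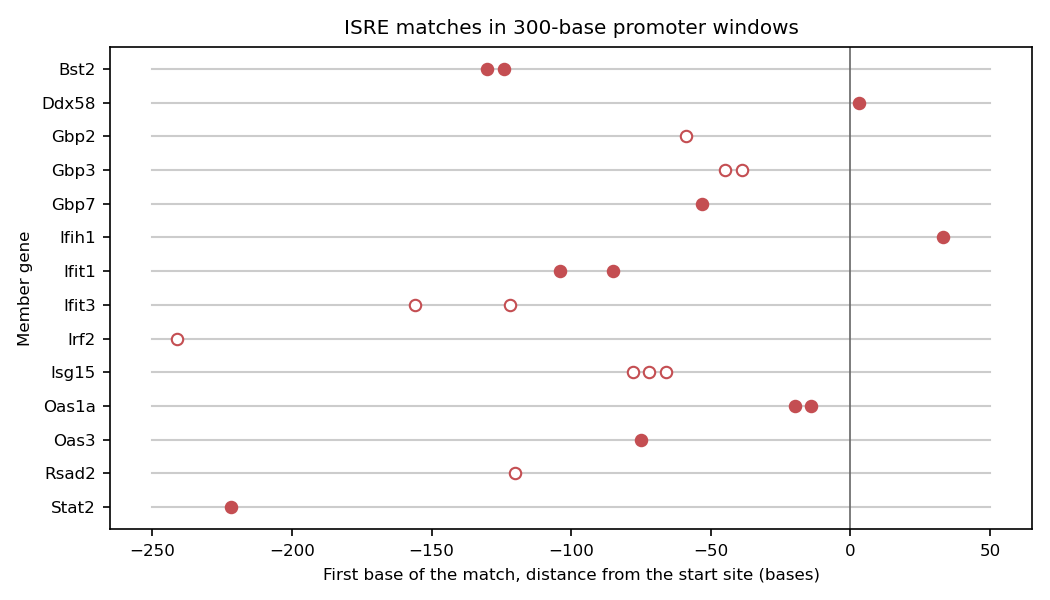
Position of each ISRE match (points) in the promoter window (grey lines) of the 14 members that have one, by distance in bases of the first matched base from the start site; filled points mark the 8 members that were higher in UVB than in Active. Isg15 carries 3 matches and all but those of Ddx58 and Ifih1 lie before the start site.

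The members lie on several chromosomes, by the GENCODE vM21 annotation of GRCm38, the build called mm10. Chromosome 16 holds 7 members, among them Ifnar2 (chr16:91372783-91405589), Ifnar1 (chr16:91485238-91507441) and Ifngr2 (chr16:91547072-91565623), all on the plus strand. The OAS family stands on chromosome 5, with Oasl2 and Oasl1 next to each other (chr5:114896936-114937915 from the start of one to the end of the other) and Oas2, Oas3 and Oas1a together between 120730333 and 120907521. The 3 Ifit members lie on chromosome 19 between 34550694 and 34650009, and Gbp7, Gbp3 and Gbp2 on chromosome 3 between 142530342 and 142638008. Members of these families resemble one another, and the sources used here do not give how fragments were shared between close copies, although all member counts were whole to within 1e-06. In the annotation 11 members overlap another gene on the other strand, among them Irf3, Irf5, Irf7 and Rtp4, which overlap Bcl2l12, Tnpo3, Phrf1 and Masp1. The strand setting of the counting is unknown here, so these 11 are uncertain to that degree. A further uncertainty holds for 6 members that overlap a gene on their own strand, such as Irf9 with Rnf31.

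Most of these genes were lowest in the Active libraries. Levels are CPM scaled with TMM factors, which adjust the library totals for differences in composition, and tests are edgeR quasi-likelihood F tests with p-values adjusted by the Benjamini-Hochberg method over 15078 genes, called at an adjusted p under 0.05. In 20 of the 38 members all 3 Active libraries lay below the other 6 libraries, a pattern seen in 15.6% of all tested genes, and in 0 members did they lie above the other 6, against 13.6% of all genes. All 3 UVB libraries lay above the other 6 in Gbp7, Irf5, Isg15, Oasl2 and Parp14, that is 5 members, against 6.09% of genes, and below them in 0 members, against 5.87%. All 3 Quiescent libraries lay above the other 6 in 9 members, against 22.1% of genes, and below them in 1 member, Ifit2, against 24.2% of genes.

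**Figure D2:**
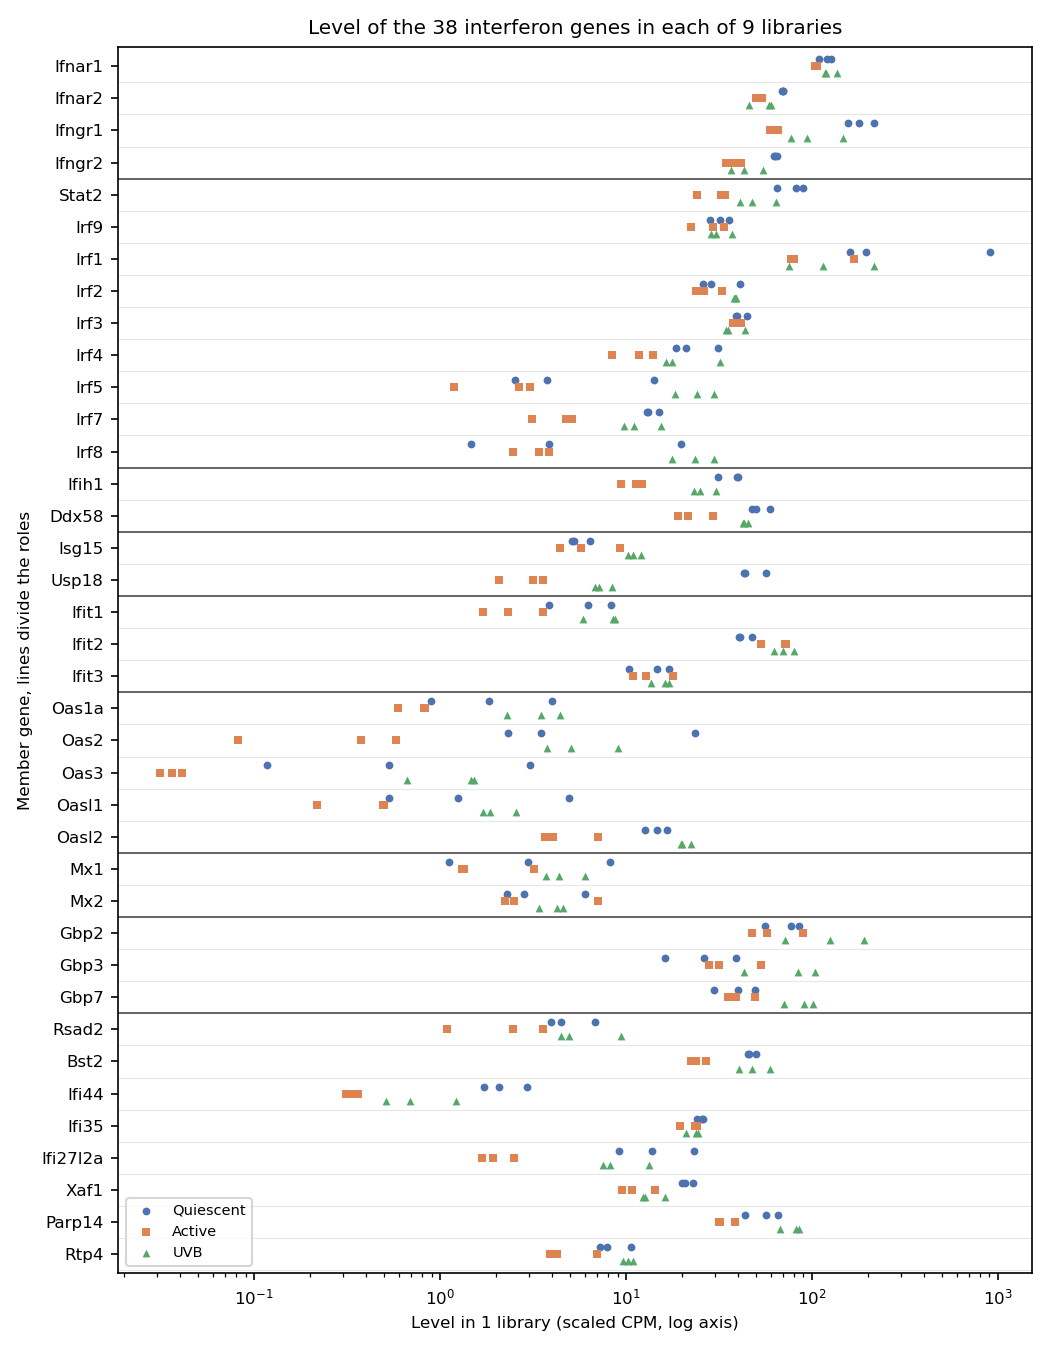
Level of each of the 38 members (scaled CPM, log axis) in each of the 9 libraries, 3 points per group, with lines dividing the members by role. For 20 members the 3 Active points lie to the left of the other 6, and 1 Quiescent library, replicate 2, lies far to the right of the other Quiescent points for Oas2, Oas3, Irf1 and Irf8.

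In Active against Quiescent, 22 members were lower, against 29.2% of all tested genes, and 1 member, Ifit2, was higher, against 29.1% of genes. The median log2 difference was -1.06 over the members and 0.01 over all tested genes. The groups did not overlap in 24 members that were lower in Active, against 32.7% of genes, and in 1 that was higher, against 33.5%. In UVB against Quiescent, 6 members were higher, against 25.8% of genes, and 8 were lower, against 23.2%, with a median log2 difference of 0.04 (0.02 over all genes). The groups of that comparison did not overlap in 7 members higher in UVB, against 30.2% of genes, and in 9 lower, against 27.4%. In UVB against Active, 18 members were higher, against 14.8% of genes, and 0 were lower, against 9.19%. The median log2 difference of that comparison was 1.03 over the members and 0.01 over all genes, and the groups did not overlap in 26 members that were higher in UVB, against 25.0% of genes, and in 0 that were lower, against 21.7%. At an unadjusted p under 0.05, 27 members were higher and 0 lower in UVB than in Active. The share of all genes past that threshold was not counted. DESeq2 called 24 members higher and 0 lower in this comparison, and of 16352 genes it called 2676 higher and 1925 lower. The 3 comparisons share groups and are not independent of one another.

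**Figure D3:**
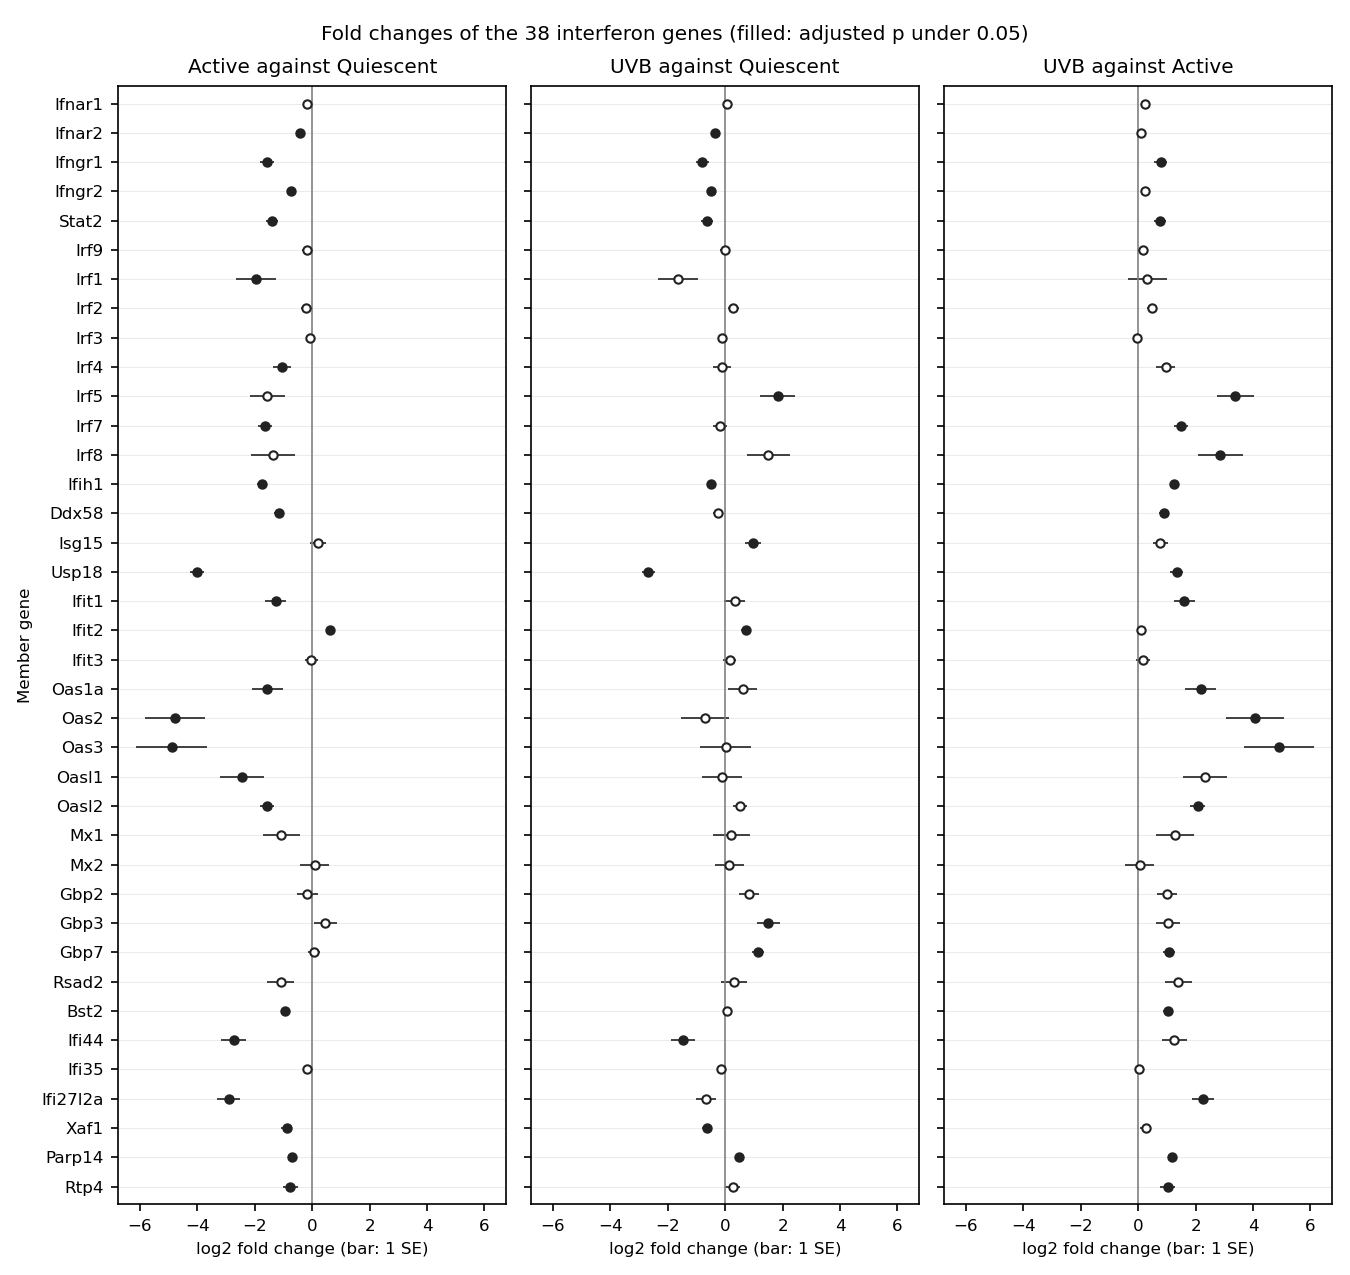
Log2 fold change of each member in the 3 comparisons, with bars of 1 standard error; filled points have an adjusted p under 0.05. In Active against Quiescent 33 members lie below 0, in UVB against Active 37 lie above 0, and in UVB against Quiescent 21 lie above and 17 below.

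The comparisons with Quiescent depend on the scaling of the libraries. The TMM factors of the Quiescent libraries were 0.660 to 0.748, and those of the Active and UVB libraries 1.16 to 1.23. With library size alone the median log2 difference of all genes moved by 0.75 in Active against Quiescent, by 0.72 in UVB against Quiescent and by -0.03 in UVB against Active. The members then split into 11 higher and 11 lower in Active against Quiescent, 20 higher and 1 lower in UVB against Quiescent, and 18 higher and 0 lower in UVB against Active. All genes split into 8651 higher and 2206 lower, 8746 and 1246, and 2147 and 1534 in the same order of comparisons. In Active against Quiescent, the calls of Irf1, Irf4, Ifit1, Oas1a, Oasl1, Bst2, Xaf1 and Rtp4 were then lost in the same direction (adjusted p 0.0703 to 0.907), and in UVB against Quiescent those of Ifngr1 and Ifi44 were (0.125 to 0.79). Differences from Quiescent are therefore differences relative to the typical gene under TMM scaling, and called members whose direction turned with library size alone are named with their role.

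Of the 4 interferon receptor subunits, Ifngr1, the ligand-binding chain of the interferon gamma receptor, differed most. Its levels were 155, 216 and 179 CPM in Quiescent, with 65.3, 59.2 and 59.6 CPM in Active and 93.8, 76.9 and 146 CPM in UVB. The Active libraries lay below all the others and the UVB libraries below all Quiescent ones. Ifngr1 was 2.99-fold lower in Active than in Quiescent (log2 difference -1.58 ± 0.23 SE, adjusted p = 0.000416), 1.73-fold lower in UVB than in Quiescent (adjusted p = 0.0179) and 1.72-fold higher in UVB than in Active (adjusted p = 0.0366). The call between UVB and Active was lost without any of the Active libraries or without UVB replicate 1 or 3 (adjusted p 0.0651 to 0.116), and that between UVB and Quiescent without Quiescent replicate 2 or UVB replicate 1 or 2 (0.0516 to 0.0664).

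Ifngr2, its signalling partner, averaged 63.6 ± 1.27 CPM (SD, n = 3) in Quiescent, 37.9 ± 3.3 in Active and 44.9 ± 9.1 in UVB. Ifnar2, the chain with the main affinity for type I interferons, averaged 69.4 ± 0.541 CPM in Quiescent, 51.5 ± 2.11 in Active and 54.8 ± 7.61 in UVB. Both were lower in Active (1.68-fold and 1.35-fold, adjusted p = 0.00211 and 0.00948) and in UVB (1.42-fold and 1.27-fold, adjusted p = 0.0188 and 0.0327) than in Quiescent, under TMM scaling, but above Quiescent in both comparisons with library size alone. In UVB against Quiescent the Ifngr2 call was lost without UVB replicate 1 or 2 (adjusted p 0.0545 to 0.0643) and that of Ifnar2 without any Quiescent library, Active replicate 2 or UVB replicate 2 (0.0517 to 0.0826). Ifnar1, the other type I chain, ranged from 104 to 137 CPM over the 9 libraries and passed no test.

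The transcription factors fell into groups by level and by spread. Stat2, the STAT specific to type I and type III interferon signalling, stood at 82.1, 89.3 and 65.1 CPM in Quiescent, against 32.4, 24.1 and 34.1 CPM in Active and 64.3, 47.6 and 40.8 CPM in UVB. The 3 groups did not overlap. It was 2.61-fold lower in Active than in Quiescent (log2 difference -1.39 ± 0.21 SE, adjusted p = 0.000482) and 1.69-fold higher in UVB than in Active (adjusted p = 0.0296). The second call was lost without any of the Active libraries or UVB replicate 1 (adjusted p 0.0562 to 0.108). In UVB against Quiescent, Stat2 was 1.55-fold lower (adjusted p = 0.0305), a call lost without Quiescent replicate 1 or 2 or UVB replicate 2 or 3 (0.0773 to 0.0898) and turned in direction with library size alone. Irf9, its DNA-binding partner, had means of 32.0, 28.3 and 32.1 CPM in Quiescent, Active and UVB and passed no test.

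Irf7, the factor that amplifies type I interferon production, was measured at 12.9, 15 and 13.1 CPM in Quiescent, with 4.77, 3.12 and 5.11 CPM in Active and 11.1, 9.79 and 15.5 CPM in UVB. The Active libraries lay apart from the others, and the Quiescent and UVB libraries overlapped. The gene was 3.16-fold lower in Active than in Quiescent (log2 difference -1.66 ± 0.25 SE, adjusted p = 0.000456) and 2.8-fold higher in UVB than in Active (1.48 ± 0.24, adjusted p = 0.00475), and both calls held without each library in turn. UVB and Quiescent differed by -0.18 ± 0.24 on the log2 scale (adjusted p = 0.567).

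Irf5 and Irf8, factors best known from macrophages and dendritic cells, had the largest rises of the transcription factors in UVB. Irf5 stood at 3.75, 14.2 and 2.54 CPM in Quiescent, against 2.65, 3.05 and 1.19 CPM in Active and 29.9, 18.4 and 24.1 CPM in UVB. Irf8 stood at 3.87, 19.8 and 1.48 CPM in Quiescent, with 3.86, 3.41 and 2.45 CPM in Active and 29.8, 17.7 and 23.5 CPM in UVB. Both genes were high in every UVB library and in Quiescent replicate 2, and low elsewhere. Irf5 was 10.5-fold higher in UVB than in Active (log2 difference 3.39 ± 0.65 SE, adjusted p = 0.00855), which held without each library, and 3.55-fold higher than in Quiescent (adjusted p = 0.0348). Irf8 was 7.28-fold higher in UVB than in Active (2.86 ± 0.79, adjusted p = 0.0309), a call lost without any Active library or UVB replicate 1 or 3 (adjusted p 0.0578 to 0.1).

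Csf1r, the receptor that macrophages need for survival, was also highest in Quiescent replicate 2 and lowest in Active, at 122, 529 and 99.3 CPM in Quiescent, against 10.4, 11 and 3.35 CPM in Active and 121, 121 and 226 CPM in UVB. Unlike Irf5 and Irf8, it was as high in Quiescent replicate 1 as in UVB replicates 1 and 2. The 10 myeloid and Langerhans cell markers summed to 320.9, 2441 and 175.2 CPM in Quiescent, 33.48 to 95.88 CPM in Active and 716.8 to 1510 CPM in UVB, and 0 of the 10 were at 0 in any group. Itgax and Cd207, of this list, stood at only 4.35 and 2.98 CPM in Quiescent replicate 2. In UVB they stood at 22.7 to 47.0 and 8.01 to 22.4 CPM. The rest of the list was highest in Quiescent replicate 2. In UVB against Active, 8 of these 10 markers were higher and 0 lower, against 14.8% and 9.19% of all tested genes. Their part in the differences of Irf5 and Irf8 was not tested.

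Irf1, induced early by interferon gamma, was measured at 196, 911 and 160 CPM in Quiescent, with 79.5, 77.5 and 168 CPM in Active and 216, 114 and 75.4 CPM in UVB. Quiescent replicate 2 was far above the other 8 libraries, which overlapped. The gene was 3.9-fold lower in Active than in Quiescent (log2 difference -1.96 ± 0.71 SE, adjusted p = 0.0398), but 1.64-fold lower without Quiescent replicate 2 (adjusted p = 0.235). That call was also lost without Active replicate 1 or 2 or UVB replicate 2 (adjusted p 0.0527 to 0.12), and without Quiescent replicate 3 Irf1 was lower in UVB than in Quiescent (adjusted p = 0.0407).

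Irf4, a factor with roles in lymphocytes and in pigment cells, stood at 18.6, 21.1 and 31.3 CPM in Quiescent, against 11.8, 8.38 and 14 CPM in Active and 32.0, 17.8 and 16.5 CPM in UVB. It was 2.08-fold lower in Active than in Quiescent (adjusted p = 0.0192), a call lost without Quiescent replicate 3 or Active replicate 2 (adjusted p 0.0663 to 0.0709). Between UVB and Active the libraries did not overlap, with an adjusted p of 0.0583, and of 0.0459 without Quiescent replicate 3. Irf2, which competes with Irf1 for its sites, and Irf3, which RNA sensors activate without new synthesis, differed little, at 23.9 to 40.8 CPM and 34.3 to 44.5 CPM over the 9 libraries. Neither passed a test with all libraries. Without Quiescent replicate 2, Irf2 was 1.41-fold higher in UVB than in Quiescent (adjusted p = 0.0306) and 1.39-fold higher than in Active (adjusted p = 0.0383).

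Both RNA sensors were lower in Active than in either of the other groups. Ifih1 encodes MDA5, a sensor of long double-stranded RNA, and stood at 31.1, 39.8 and 39.3 CPM in Quiescent, with 11.3, 9.39 and 12.2 CPM in Active and 25.0, 23.3 and 30.6 CPM in UVB. The groups formed 3 separate ranges. Ifih1 was 3.35-fold lower in Active than in Quiescent (log2 difference -1.75 ± 0.17 SE, adjusted p = 4.03e-05) and 2.4-fold higher in UVB than in Active (1.26 ± 0.16, adjusted p = 0.00187), both held without each library. Against Quiescent the UVB level was 1.4-fold lower (adjusted p = 0.0352), a call that was lost without Quiescent replicate 2 or 3, Active replicate 1 or UVB replicate 1 or 2 (adjusted p 0.0529 to 0.113) and turned in direction with library size alone.

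Ddx58 encodes RIG-I, a sensor of short RNA with a triphosphate end. Its levels were 47.3, 59.5 and 50.3 CPM in Quiescent, against 21.5, 19.1 and 29.3 CPM in Active and 43.1, 45.0 and 42.7 CPM in UVB. Again the groups did not overlap. The level was 2.25-fold lower in Active than in Quiescent (adjusted p = 0.000341) and 1.87-fold higher in UVB than in Active (adjusted p = 0.0068), and both calls held without each library.

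Usp18 showed the largest difference between Quiescent and both other groups among the members outside the OAS family. It encodes the protease that removes ISG15 from proteins and also dampens signalling at IFNAR2. Levels were 56.8, 43.0 and 43.6 CPM in Quiescent, with 3.18, 2.07 and 3.60 CPM in Active and 7.19, 6.85 and 8.44 CPM in UVB. The 3 ranges were far apart, with the lowest Quiescent library well above every UVB library. Usp18 was 16.2-fold lower in Active than in Quiescent (log2 difference -4.02 ± 0.24 SE, adjusted p = 5.52e-06), 6.38-fold lower in UVB than in Quiescent (-2.67 ± 0.22, adjusted p = 4.17e-05) and 2.54-fold higher in UVB than in Active (1.35 ± 0.22, adjusted p = 0.00462). All 3 calls held without each library.

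Isg15, the ubiquitin-like protein that USP18 removes, did not follow Usp18. It was measured at 6.41, 5.24 and 5.14 CPM in Quiescent, against 5.73, 4.42 and 9.28 CPM in Active and 10.8, 12.1 and 10.2 CPM in UVB. The UVB libraries lay above all the others, and Quiescent and Active overlapped. The level was 1.97-fold higher in UVB than in Quiescent (log2 difference 0.98 ± 0.27 SE, adjusted p = 0.0163), a call lost without UVB replicate 2 (adjusted p = 0.0507). Between UVB and Active the adjusted p was 0.0683, and 0.0222 without Active replicate 3.

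The IFIT proteins bind foreign RNA and block its translation, and their 3 genes, neighbours on chromosome 19, gave different calls. Ifit2 stood at 47.4, 40.9 and 40.5 CPM in Quiescent, with 53.3, 72.8 and 71.8 CPM in Active and 69.9, 79.6 and 62.4 CPM in UVB. All Quiescent libraries lay below the others. It was 1.54-fold higher in Active (log2 difference 0.62 ± 0.15 SE, adjusted p = 0.00663) and 1.64-fold higher in UVB (0.72 ± 0.15, adjusted p = 0.00417) than in Quiescent, and both calls held without each library.

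Ifit1 stood at 6.22, 3.87 and 8.33 CPM in Quiescent, against 2.31, 1.70 and 3.60 CPM in Active and 5.86, 8.53 and 8.74 CPM in UVB. The Active libraries were the lowest. It was 2.42-fold lower in Active than in Quiescent (adjusted p = 0.0155), a call lost without Quiescent replicate 3 or Active replicate 1 or 2 (adjusted p 0.0521 to 0.0569), and 3.04-fold higher in UVB than in Active (adjusted p = 0.0168), a call lost without Active replicate 1 or 2 (0.0636 to 0.0681). Ifit3 ranged from 10.4 to 17.9 CPM over the 9 libraries and passed no test.

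Active OAS proteins make the second messenger that activates RNase L, but not every protein of the family has that activity. All 5 members of this family were lower in Active than in Quiescent, against 29.2% of all tested genes, and 4 of the 5 were higher in UVB than in Active, against 14.8%. Without each library in turn, the first call held for Oas2, Oas3 and Oasl2, and the second for Oasl2. Oasl2, the member of the family with the highest FPKM, fragments per kilobase of transcript, in each group, stood at 14.7, 16.6 and 12.6 CPM in Quiescent, with 3.68, 4.03 and 7.07 CPM in Active and 22.3, 19.7 and 20.1 CPM in UVB. The groups formed 3 separate ranges with UVB at the top. It was 2.98-fold lower in Active than in Quiescent (log2 difference -1.57 ± 0.25 SE, adjusted p = 0.00072) and 4.21-fold higher in UVB than in Active (2.07 ± 0.25, adjusted p = 0.00146), both held without each library. Between UVB and Quiescent the adjusted p was 0.121, and 0.0326 without Active replicate 3.

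Oas2 was measured at 2.31, 23.5 and 3.48 CPM in Quiescent, against 0.374, 0.58 and 0.0818 CPM in Active and 3.78, 5.07 and 9.08 CPM in UVB. Oas3 stood at 0.117, 3.04 and 0.531 CPM in Quiescent, with 0.0312, 0.0363 and 0.0409 CPM in Active and 0.662, 1.47 and 1.52 CPM in UVB. Both were low in every Active library and highest by far in Quiescent replicate 2. In fragments, Oas3 had 63 over the Quiescent libraries, 3 over Active and 109 over UVB, so that its UVB to Active ratio was 33.8 with a 95% counting interval of 11.2 to 166, and its Quiescent to Active ratio was 29.8 (9.74 to 148), intervals that cover counting error only.

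Oas2 was 27.4-fold lower in Active than in Quiescent (log2 difference -4.78 ± 1.04 SE, adjusted p = 0.00389) and 16.8-fold higher in UVB than in Active (4.07 ± 1.02, adjusted p = 0.0225). Without Quiescent replicate 2 the first became 8.13-fold (adjusted p = 0.00526). The second was lost without any Active library or UVB replicate 3 (adjusted p 0.0517 to 0.0759). For Oas3 the adjusted p was 0.00832 in Active against Quiescent and 0.0226 in UVB against Active. Without Quiescent replicate 2 the log2 difference between Active and Quiescent moved from -4.90 to -2.95 (adjusted p = 0.0238), and without any 1 of the Active libraries the UVB against Active call was lost (0.0633 to 0.0837).

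Oas1a, at 0.899, 3.99 and 1.83 CPM in Quiescent, had 0.592, 0.834 and 0.818 CPM in Active and 2.30, 3.49 and 4.42 CPM in UVB. It was 2.97-fold lower in Active than in Quiescent (adjusted p = 0.0323) and 4.54-fold higher in UVB than in Active (adjusted p = 0.0215). The first call was lost without Quiescent replicate 2 or any Active library (adjusted p 0.0682 to 0.149), and the second without any Active library or UVB replicate 3 (0.0556 to 0.0793). Without Quiescent replicate 2, Oas1a was 2.52-fold higher in UVB than in Quiescent (adjusted p = 0.044).

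Oasl1 stood at 1.25, 4.95 and 0.531 CPM in Quiescent, against 0.499, 0.218 and 0.491 CPM in Active and 1.86, 1.71 and 2.57 CPM in UVB. Its 5.49-fold lower level in Active than in Quiescent (adjusted p = 0.0219) became 2.23-fold without Quiescent replicate 2 (adjusted p = 0.103), and the call was also lost without Active replicate 1 or 2 (0.0503 to 0.0768). Its UVB and Active libraries did not overlap, with an adjusted p of 0.0547, and of 0.0125 to 0.0232 without Quiescent replicate 2 or 3.

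The MX proteins, GTPases that trap incoming viruses, passed no test. Mx1 stood at 2.97, 8.16 and 1.12 CPM in Quiescent, with 1.34, 1.31 and 3.19 CPM in Active and 3.72, 4.38 and 6.04 CPM in UVB. Quiescent replicate 2 was again the highest. Without Quiescent replicate 3, Mx1 was 2.85-fold lower in Active than in Quiescent (adjusted p = 0.0447). Mx2 ranged from 2.25 to 7.07 CPM, with its highest value in Active replicate 3.

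The guanylate-binding proteins, GTPases induced mainly by interferon gamma that attack membranes around intracellular microbes, had no member called lower in any comparison. Gbp7 stood at 29.8, 49.4 and 39.8 CPM in Quiescent, against 35.3, 39.1 and 49.4 CPM in Active and 102, 90.4 and 70.3 CPM in UVB. Every UVB library lay above the other 6. It was 2.21-fold higher than in Quiescent (log2 difference 1.14 ± 0.22 SE, adjusted p = 0.00265) and 2.12-fold higher than in Active (1.08 ± 0.22, adjusted p = 0.00971), and both calls held without each library.

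Gbp3 stood at 26.2, 39.2 and 16.2 CPM in Quiescent, with 31.8, 27.9 and 53.0 CPM in Active and 104, 84.5 and 43.3 CPM in UVB. UVB replicate 3 lay below the highest Active library. Gbp3 was 2.84-fold higher in UVB than in Quiescent (adjusted p = 0.0153), a call lost without UVB replicate 1 (adjusted p = 0.056), and in UVB against Active the adjusted p was 0.0946. Gbp2 stood at 191, 125 and 71.5 CPM in UVB, with 55.9 to 84.9 CPM in Quiescent and 47.3 to 89.2 CPM in Active, and it passed no test. Without UVB replicate 3, Gbp2 was higher in UVB than in Quiescent (adjusted p = 0.0163) and than in Active (0.0267), and Gbp3 was higher in UVB than in Active (0.046). With DESeq2 and all libraries, Gbp2 and Gbp3 were higher in UVB than in Active (adjusted p = 0.0293 and 0.0429).

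Among the 8 other induced genes, 6 were lower in Active than in Quiescent, against 29.2% of all tested genes, and 4 were higher in UVB than in Active, against 14.8%. Bst2 encodes tetherin, which holds budding viruses at the cell surface. It stood at 45.6, 50.2 and 45.1 CPM in Quiescent, against 23.7, 22.3 and 26.8 CPM in Active and 47.8, 59.7 and 40.4 CPM in UVB. The Active libraries lay apart and the other groups overlapped. The level was 1.93-fold lower in Active than in Quiescent (log2 difference -0.95 ± 0.15 SE, adjusted p = 0.000676) and 2.03-fold higher in UVB than in Active (1.02 ± 0.15, adjusted p = 0.00314), and both calls held without each library.

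Ifi27l2a, a small interferon-induced membrane protein gene, stood at 9.15, 23.1 and 13.9 CPM in Quiescent, with 1.68, 2.50 and 1.92 CPM in Active and 8.16, 7.53 and 13.3 CPM in UVB. Again Active was low and the others overlapped. It was 7.53-fold lower in Active than in Quiescent (log2 difference -2.91 ± 0.39 SE, adjusted p = 0.000262) and 4.75-fold higher in UVB than in Active (2.25 ± 0.38, adjusted p = 0.00534), both held without each library.

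Parp14, an ADP-ribosyltransferase, stood at 43.8, 65.4 and 56.5 CPM in Quiescent, against 31.8, 32.1 and 38.6 CPM in Active and 84.7, 81.5 and 67.4 CPM in UVB. The 3 groups did not overlap and UVB was the highest. It was 2.28-fold higher in UVB than in Active (log2 difference 1.19 ± 0.17 SE, adjusted p = 0.00247), which held without each library. In Active against Quiescent it was 1.62-fold lower (adjusted p = 0.00605), which also held without each library but turned to a log2 difference of 0.05 with library size alone. Its 1.41-fold higher level in UVB than in Quiescent (adjusted p = 0.0327) was lost without Quiescent replicate 1 or 3 or UVB replicate 1 or 2 (0.0585 to 0.103).

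Rtp4, a chaperone-like protein gene induced by type I interferon, stood at 7.90, 10.6 and 7.26 CPM in Quiescent, with 3.90, 4.24 and 6.99 CPM in Active and 10.9, 10.3 and 9.65 CPM in UVB. Active was the lowest group without overlap. The gene was 1.7-fold lower in Active than in Quiescent (adjusted p = 0.03) and 2.04-fold higher in UVB than in Active (adjusted p = 0.023). The first call was lost without Quiescent replicate 2 or Active replicate 1 or 2 (adjusted p 0.102 to 0.104), and the second without Active replicate 1 or 2 or UVB replicate 1 (0.0722 to 0.0916).

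Ifi44 and Xaf1, an antagonist of the apoptosis inhibitor XIAP, were lower in both other groups than in Quiescent. Ifi44 stood at 2.07, 1.73 and 2.95 CPM in Quiescent, against 0.312, 0.363 and 0.327 CPM in Active and 0.693, 0.514 and 1.22 CPM in UVB. Xaf1 averaged 21.2 ± 1.45 CPM (SD, n = 3) in Quiescent, 11.5 ± 2.48 in Active and 13.7 ± 2.1 in UVB. No Quiescent library of either gene overlapped with the other groups. Ifi44 was 6.66-fold lower in Active (adjusted p = 0.000674) and 2.78-fold lower in UVB (adjusted p = 0.0153), and Xaf1 was 1.85-fold lower in Active (adjusted p = 0.00316) and 1.54-fold lower in UVB (adjusted p = 0.0207). The UVB calls were lost without UVB replicate 1 or 2 for Ifi44 (0.0539 to 0.0598) and without Quiescent replicate 1 or UVB replicate 2 or 3 for Xaf1 (0.0576 to 0.0678), and the Xaf1 difference between UVB and Quiescent turned in direction with library size alone. Between UVB and Active, Ifi44 had an adjusted p of 0.062, and of 0.0466 without UVB replicate 2.

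Rsad2, which encodes viperin, and Ifi35 passed no test of the main edgeR fit. Rsad2 stood at 4.50, 6.79 and 3.96 CPM in Quiescent, with 1.09, 2.47 and 3.60 CPM in Active and 4.47, 4.97 and 9.35 CPM in UVB. Its Active libraries lay below the other 6. Without Active replicate 3 Rsad2 was lower in Active than in Quiescent (adjusted p = 0.0343) and higher in UVB than in Active (0.0469). DESeq2 called both differences (adjusted p = 0.0375 and 0.0158), and edgeR with a replicate block called the first (0.0399). Ifi35 was among the steadiest members, at 19.6 to 25.8 CPM over the 9 libraries.

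Compared per transcript length, with the authors' FPKM, the members differed widely in abundance. In Quiescent, Irf1 was listed highest with a mean of 209 FPKM, followed by Ifngr1 at 92.8, Bst2 at 79.9 and Ifnar2 at 59.1. Without Quiescent replicate 2 the Irf1 mean was 88.9 FPKM, beside 85 FPKM for Ifngr1. In UVB, Bst2 at 83.0 and Irf1 at 66.4 FPKM stood highest, and Ifi44 at 0.281 and Oas3 at 0.256 FPKM lowest. In Active the mean of Oas3 was 0.00765 FPKM and that of Irf1 53.5.

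Quiescent replicate 2 stood apart in these genes. It was the highest Quiescent library for 27 of the 38 members, against 30.1% of all tested genes. Irf1, Irf5, Irf8, Oas2, Oas3, Oasl1 and Mx1 were the members with the widest gaps between it and the other Quiescent libraries, named here after their values were seen. The same library had the highest myeloid marker sum, 2441 CPM, of all 9. Without this library, 18 members were lower in Active than in Quiescent, where 4026 of 15350 tested genes were lower. Then 9 members were higher and 4 lower in UVB than in Quiescent, as were 3865 and 3248 of the tested genes. Irf8 then had a log2 difference of 0.26 between Active and Quiescent (adjusted p = 0.629), and it was 8.69-fold higher in UVB than in Quiescent (adjusted p = 0.00114), where the fit with all libraries had not called it (2.83-fold, adjusted p = 0.127). Irf5 became 7.61-fold higher in UVB than in Quiescent (adjusted p = 0.0013), and its smaller difference with all libraries was lost without Quiescent replicate 1 or 3, Active replicate 1 or UVB replicate 1 or 3 (0.0502 to 0.105). Between Active and Quiescent, Irf5 had an adjusted p of 0.0586, and of 0.0203 to 0.0437 without Quiescent replicate 3 or 1, and Irf8 one of 0.155, and of 0.0272 without Quiescent replicate 3.

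**Figure D4:**
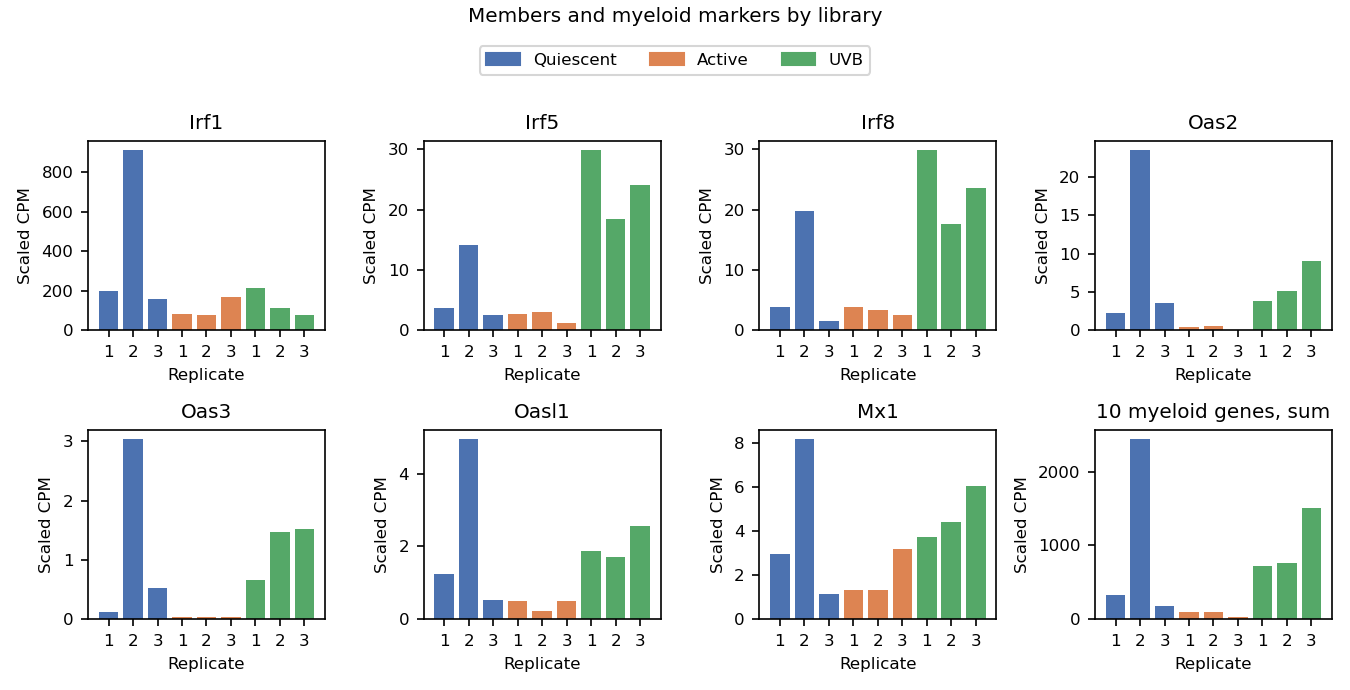
Level in each of the 9 libraries (bars, scaled CPM, axes from 0) of 7 members and, in the last panel, the summed level of the 10 myeloid markers. Quiescent replicate 2 is the highest library for Irf1, at 911 CPM, and for Oas2, at 23.5 CPM, and it has the highest myeloid sum, whereas Irf5 is higher in all 3 UVB libraries and Irf8 in 2 of them.

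Other marker lists also moved with the groups. In UVB against Active, 7 of 7 T cell markers and 7 of 7 mast cell markers tested were higher, against 14.8% of all tested genes. So were 8 of 8 endothelial, 9 of 10 fibroblast and 3 of 6 smooth muscle and pericyte markers. Of 8 keratinocyte and 7 Schwann cell markers 0 were called in either direction. Of 10 pigment lineage markers 0 were higher and 9 lower, against 9.19% of all genes lower. The T cell markers summed to 334.5 to 487.4 CPM in Quiescent, 21.87 to 27.55 CPM in Active and 213.1 to 329 CPM in UVB, while Cd3g alone, a chain of the T cell receptor complex, was 0.0591 to 0.313 CPM in Quiescent, 0.508 to 0.904 CPM in Active and 4.08 to 7 CPM in UVB. Nearly all of the T cell sum was Thy1, which fibroblasts also express, at 333.2 to 483.3 CPM in Quiescent. Cd3g was 3.64-fold higher in Active than in Quiescent (adjusted p = 0.0139). The endothelial markers summed to 365.7 to 530.5 CPM in Quiescent, 23.32 to 28.08 CPM in Active and 181.7 to 305.8 CPM in UVB. The mast cell markers summed to 61.71 to 118.1 CPM in UVB and to 3.838 to 12.22 CPM elsewhere. The keratinocyte markers summed to 2062, 576.1 and 124.6 CPM in Quiescent replicates 1, 2 and 3. The B cell and plasmacytoid dendritic markers summed to 55.05, 24.08 and 10.22 CPM there. Of 4 of these tested in UVB against Active, 1 was higher and 0 lower, against 14.8% and 9.19% of genes. Siglech, of that list, stood at 6.26 CPM in Quiescent replicate 2 and 0.0818 to 1.08 CPM elsewhere. The myeloid, endothelial, fibroblast and T cell lists had their lowest sums in the Active libraries, whereas Cd3g, 1 gene of the T cell list, was lowest in Quiescent. The part of these cell types in the differences of the members was not tested.

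Interferons themselves were close to undetected. For Ifng, Quiescent replicates 1, 2 and 3 had 0, 10 and 1 fragments, Active 0, 0 and 1, and UVB 15, 23 and 11. Most of these fragments lay in the UVB libraries and in Quiescent replicate 2. The summed counts of 49 in UVB and 1 in Active gave a ratio of 45.5 with a 95% counting interval of 7.8 to 1.83e+03, and the adjusted p of the difference was 0.0366, a call lost without any 1 of the Active or UVB libraries (adjusted p 0.0558 to 0.126). Without Quiescent replicate 2, Ifng was also higher in UVB than in Quiescent (0.0191), and without Quiescent replicate 1 lower in Active than in Quiescent (0.025). Ifnb1 had 2 fragments in Quiescent, 0 in Active and 2 in UVB, and Ifnk, an interferon of keratinocytes, had 3, 0 and 2. A count of 0 over the Active libraries allows up to 3 fragments, or 0.0357 CPM.

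Signalling components between receptor and nucleus were present in all groups. Tyk2 and Jak1, the kinases of the type I receptor, were 1.7-fold and 1.84-fold lower in Active than in Quiescent (adjusted p = 0.000633 and 0.000588). Tyk2 was 1.66-fold higher in UVB than in Active (adjusted p = 0.00462), and Jak2, the partner kinase of IFNGR2, was 1.73-fold higher (adjusted p = 0.00612). Jak2 was also 1.37-fold lower in Active than in Quiescent (adjusted p = 0.0195), a call lost without Quiescent replicate 2 or 3 or Active replicate 2 or 3 (0.0554 to 0.0786), and Jak1 1.52-fold lower in UVB than in Quiescent (adjusted p = 0.00605). With library size alone these last differences turned in direction, and those of Tyk2 and Jak1 between Active and Quiescent were lost (adjusted p = 0.888 and 0.338).

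Socs1, an induced inhibitor of the JAK kinases, had a pattern like that of Usp18, another brake on the pathway. It stood at 41.4, 48.5 and 32.7 CPM in Quiescent, with 1.90, 1.60 and 4.09 CPM in Active and 11.1, 5.69 and 7.29 CPM in UVB. The groups formed 3 separate ranges in the same order as for Usp18. Socs1 was 16.2-fold lower in Active (adjusted p = 5.84e-05) and 5.09-fold lower in UVB (adjusted p = 0.00112) than in Quiescent, and 3.19-fold higher in UVB than in Active (adjusted p = 0.0168), the last lost without Active replicate 1 or 2 or UVB replicate 1 (0.0563 to 0.0661). Stat3 and Socs3, which serve interleukin 6 above all, passed no test, with 156 to 254 CPM and 117 to 408 CPM over the 9 libraries. Without Active replicate 3, its highest library, Socs3 was lower in Active than in Quiescent (adjusted p = 0.037) and higher in UVB than in Active (0.025).

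The other genes of the pathway were taken from 4 lists of interferon ligands, receptor-proximal signalling, nucleic acid sensing and further induced genes, in all 101 genes of which 82 were tested. In Active against Quiescent, 10 of the 82 were higher and 41 lower, against 29.1% and 29.2% of all tested genes. Together these were 51 pathway genes, against 58.3% of all genes called in either direction. In UVB against Quiescent 19 were higher and 18 lower, against 25.8% and 23.2% of genes, together 37 against 49.0%. In UVB against Active 38 were higher, against 14.8% of genes. The interferon lambda receptor gene Ifnlr1 was the 1 lower gene, against 9.19%, which made 39 together against 24.0%. With library size alone the pathway splits were 25 higher and 27 lower, 47 and 4, and 38 and 1. All 15078 tested genes then split into 8651 higher and 2206 lower, 8746 and 1246, and 2147 and 1534. The Ifnlr1 call was lost without Active replicate 1 or 2 or UVB replicate 1 or 2 (adjusted p 0.0701 to 0.105). The median log2 differences were -0.59, 0.25 and 0.61 in the same order. Of 18 genes of nucleic acid sensing, 12 were lower in Active than in Quiescent, against 29.2% of all genes, and 8 higher in UVB than in Active, against 14.8%.

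Among these, the schlafen gene Slfn5 and the PYHIN family gene Ifi203 had some of the smallest p-values. Slfn5 stood at 114, 111 and 172 CPM in Quiescent, against 7.11, 6.64 and 7.32 CPM in Active and 54.4, 44.8 and 81.8 CPM in UVB. It was 18.8-fold lower in Active than in Quiescent (adjusted p = 7.86e-06) and 8.59-fold higher in UVB than in Active (adjusted p = 0.000465). Ifi203 was 49.4-fold lower in Active than in Quiescent (adjusted p = 1.59e-05) and 23.3-fold higher in UVB than in Active (adjusted p = 0.000628). Aim2, a sensor of cytosolic DNA, was 11.4-fold higher in UVB than in Active (adjusted p = 0.000715), with Sp110, Phf11d and Iigp1 next at 8.32-fold, 5.01-fold and 4.98-fold.

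In Active against Quiescent, Phf11d, Isg20, Lgals9 and Ifitm3 were also lower, by 11.6-fold, 21.6-fold, 4.53-fold and 3.48-fold. In UVB against Quiescent the smallest adjusted p-values belonged to genes of both directions. Lgals9, Isg20 and Samhd1, a nucleotide-degrading restriction factor, were lower by 3.68-fold, 6.49-fold and 2.1-fold, and Tlr3, an endosomal sensor of double-stranded RNA, and Cmpk2 were higher by 1.78-fold and 3.26-fold. With library size alone the Samhd1 call was lost (adjusted p = 0.0764).

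Members with and without ISRE letters in their promoter window were both among those called. Of the 14 with a match, 8 were higher in UVB than in Active, among them Bst2, Ifit1, Oas1a, Oas3 and Stat2, whose elements are printed with the promoter sequences, and of the 17 with a window and no match 5 were, against 14.8% of all genes. Between Active and Quiescent, 7 of the 14 and 10 of the 17 were lower in Active, against 29.2% of all genes. Isg15, with the longest run of the element, and Gbp3 passed the test against Quiescent but not against Active.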

How the data were processed

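The 9 libraries of sorted mouse skin cells were made from poly(A) RNA with a kit that keeps the strand, per the labels' protocols. The submitters' processing notes name cutadapt 1.8, TopHat2 2.0.13, Cuffdiff 2.2.1 and the build mm10. The sources used here do not give the annotation or how strand was set in counting. The deposited table gives, per the file headers, the authors' estimated counts of fragments per gene and library before scaling, of which 1.08% were not whole to within 1e-06, and the authors' FPKM values.

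Groups and replicate numbers came from the labels. The estimated counts, rounded here, went into edgeR 4.0.16 under R 4.3.3 (two-sided quasi-likelihood F test, TMM factors, 1 fit of 9 libraries, filterByExpr, Benjamini-Hochberg adjustment over 15078 genes, threshold 0.05). Standard errors were derived from the log2 difference and F. CPM are counts per scaled library total times 1e+06. The fit was first run on simulated counts in which all libraries had the same composition, apart from a small set of raised genes. That check therefore does not cover the scaling of the Quiescent libraries. Intervals of fragment ratios are exact binomial ones, and counting limits cover counting error only, since copies made by PCR are not independent molecules. Alternatives were other scaling factors, other filters (none, or 50 counts in 3 libraries), DESeq2 1.42.0, limma 3.58.1 on log2(FPKM + 1) and log2(FPKM + 0.1) with a mean FPKM of at least 0.5, fits of only the groups compared, a replicate block and leaving out each library.

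The members, lists and tests were chosen with earlier results of these data known. The text names all 38 members, in each comparison the up to 6 genes of the pathway lists with the smallest adjusted p, and a fixed set of kinases, STATs, SOCS genes and interferons. One gene of that set is not reported here. Ifnlr1 was added after its value was seen. Protein sequences were not used here.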

Additional observations from a re-analysis of the deposited data

How the results depend on the processing

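With library size alone, 11 members were higher and 11 lower in Active against Quiescent, and 20 higher and 1 lower in UVB against Quiescent. The sign changed for 10 members in Active against Quiescent and 12 in UVB against Quiescent. Those called under either setting were, in Active against Quiescent, Ifnar1 (log2 difference 0.57), Ifnar2 (0.32), Ifngr2 (0.0049), Irf9 (0.57), Irf2 (0.54), Irf3 (0.69), Ifit3 (0.71), Ifi35 (0.57) and Parp14 (0.053), and in UVB against Quiescent Ifnar2 (0.38), Ifngr2 (0.22), Stat2 (0.081), Irf3 (0.60), Ifih1 (0.24), Ddx58 (0.46), Ifi35 (0.59) and Xaf1 (0.093). Among named pathway genes, Jak2 turned in Active against Quiescent (0.29), and Jak1 (0.13) and Tyk2 (0.68) in UVB against Quiescent. TMM and this setting differ only in the scaling factors.

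Under the other settings that keep all libraries, 17 to 24 members were lower and 1 higher in Active against Quiescent, 5 to 7 higher and 6 to 8 lower in UVB against Quiescent, and 17 to 24 higher and 0 lower in UVB against Active. Of 13191 to 19376 genes tested, 4052 to 4521 were then higher and 4037 to 4862 lower in Active against Quiescent. The same ranges were 3216 to 3966 and 3027 to 4005 in UVB against Quiescent, and 1657 to 2676 and 1004 to 1925 in UVB against Active. The pathway lists had 46 to 52, 30 to 38 and 33 to 47 genes called in the same order of comparisons. With a stricter filter or the FPKM filter, 36 members could be tested in Active against Quiescent. There the calls of Irf1, Oas1a, Oasl1 and Rtp4 were lost in some fits by limma, of only the groups compared or with a replicate block (adjusted p 0.0542 to 0.134). Those of Irf5 and Rsad2 were gained with DESeq2 (0.0169 and 0.0375). In UVB against Active, DESeq2 also called Irf4, Isg15, Oasl1, Gbp2, Gbp3 and Rsad2 higher (0.0109 to 0.0429).

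Leaving out each library gave 16 to 23 members lower and 1 higher in Active against Quiescent. Over all genes it gave 3679 to 4486 lower and 3843 to 4452 higher. In UVB against Quiescent it gave 3 to 9 higher, with 3 without UVB replicate 1, and 1 to 8 lower, with 5 without Quiescent replicate 1, 4 without Quiescent replicate 2 or UVB replicate 1, and 1 without UVB replicate 2. In UVB against Active it gave 10 to 20 higher, with 10 without Active replicate 1 or 2, and 0 lower. Calls over all genes also fell there, from 2226 higher to 1215 and 999. In UVB against Quiescent, 3214 to 3865 of all genes were higher and 2687 to 3728 lower in these fits. Pathway genes called ranged from 44 to 52, from 19 to 42 (24 without Quiescent replicate 3, 19 without UVB replicate 1) and from 22 to 44 (22 without Active replicate 2). Calls of 16 of 22 members lower in Active against Quiescent held without each library, as did that of Ifit2; in UVB against Quiescent 2 of 6 higher and 1 of 8 lower did, and in UVB against Active 10 of 18. The cause of these changes was not tested; each such fit has fewer libraries.

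Same-numbered libraries did not deviate together throughout: their correlation was 0.00235 to 0.14 in Active against Quiescent, -0.19 to 0.193 in UVB against Quiescent and -0.097 to 0.189 in UVB against Active. The numbers were therefore not taken to pair the libraries. With a replicate block, 20 members were lower and 1 higher in Active against Quiescent. In UVB against Quiescent 5 were then higher and 8 lower, and in UVB against Active 17 were higher and 0 lower. Of 15078 genes, that fit called 4135 higher and 4088 lower, 3580 and 3229, and 1826 and 1004 in the same order of comparisons. Not every library correlated best with its own number. Depth limits Oas3, Ifng, Ifnb1 and Ifnk, which rest on few fragments.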
